A study of Homo sapiens with 5 samples.

Results

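The DNA replication and S phase genes are 38 genes picked by symbol, out of 36601 features counted, that together make, guard and copy DNA during S phase. They were followed in 5 single-cell RNA libraries of MDA-MB-468, a long-established cell line from a human triple-negative breast cancer. Each symbol was found in the feature list. The libraries held cells given PF0517515 for 6 h (the 6 h inhibitor library), cells given it for 72 h (the 72 h inhibitor library), cells in recovery after 72 h of it, cells left untreated for 72 h, and untreated cells at 0 h. PF0517515 blocks ACC (acetyl-CoA carboxylase), per the study, and ACC supplies the malonyl-CoA from which fatty acids are built. No dose, vehicle or length of recovery is given in the labels, and they name no genetic change in any group. Each group is 1 library of 1 cell line. No difference can therefore be set against a spread between samples, no test was possible, and the values describe these libraries.

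A cell copies its DNA once per cycle. In G1, the MCM helicase is loaded onto origins by CDC6 and its partners. At the start of S phase CDC45 and the GINS complex turn it into an active helicase, primase and DNA polymerase alpha lay down primers, and PCNA, a sliding clamp, holds the polymerases that extend them. Ribonucleotide reductase and thymidylate synthase supply the deoxynucleotides, chromatin factors repack the new DNA, and checkpoint and repair proteins watch over the forks. Many of these genes are switched on together at the border of G1 and S by transcription factors of the E2F family, so their summed level is often read as a sign of how much of a culture is entering or passing through S phase.

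The promoters of several genes are shown because the results turn on genes that moved together. RefSeq sequence on GRCh38.p14, from 250 bases before to 50 bases after the first listed start, was found for 31 of the 38 genes. MCM4, MCM5, WDR76, CCNE2, POLD3, ATAD2 and DSCC1 had no entry. The E2F-type words searched were TTTGGCGC or TTTCCCGC or TTTGCCGC or TTTCGCGC, on both strands, and overlapping matches on opposite strands were counted apart. Such a word was in 15 of the 31 windows, or 48.4%, against 3.33% of all 27305 promoters in the table and 5.90% of those of genes at 10 CPM (UMI counts scaled to a common library total) or more. In MCM6, a helicase subunit, GINS2, a GINS subunit, UHRF1, which guides DNA methylation after replication, and CLSPN, which encodes the checkpoint adaptor claspin, the words are in capitals below.
MCM6 promoter, chr2:135876394-135876693 on the minus strand: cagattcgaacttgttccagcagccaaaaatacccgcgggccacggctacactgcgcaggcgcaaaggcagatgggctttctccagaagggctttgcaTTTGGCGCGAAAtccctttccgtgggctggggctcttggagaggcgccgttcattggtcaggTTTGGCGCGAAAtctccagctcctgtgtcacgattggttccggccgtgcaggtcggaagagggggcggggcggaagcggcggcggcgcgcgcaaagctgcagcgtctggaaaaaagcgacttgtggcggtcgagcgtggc
GINS2 promoter, chr16:85688905-85689204 on the minus strand: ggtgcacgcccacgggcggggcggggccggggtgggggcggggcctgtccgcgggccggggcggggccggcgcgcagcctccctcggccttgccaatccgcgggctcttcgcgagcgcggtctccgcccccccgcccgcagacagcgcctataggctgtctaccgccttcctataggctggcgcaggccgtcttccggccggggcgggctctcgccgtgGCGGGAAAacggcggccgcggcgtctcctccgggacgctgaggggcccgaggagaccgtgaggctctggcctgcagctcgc
UHRF1 promoter, chr19:4909251-4909550 on the plus strand: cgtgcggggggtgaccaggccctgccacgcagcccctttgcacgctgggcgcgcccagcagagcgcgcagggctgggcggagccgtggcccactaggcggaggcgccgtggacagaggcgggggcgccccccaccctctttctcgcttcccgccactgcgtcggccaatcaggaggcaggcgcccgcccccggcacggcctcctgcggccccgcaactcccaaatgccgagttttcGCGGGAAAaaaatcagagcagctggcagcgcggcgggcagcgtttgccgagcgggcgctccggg
CLSPN promoter, chr1:35769929-35770228 on the minus strand: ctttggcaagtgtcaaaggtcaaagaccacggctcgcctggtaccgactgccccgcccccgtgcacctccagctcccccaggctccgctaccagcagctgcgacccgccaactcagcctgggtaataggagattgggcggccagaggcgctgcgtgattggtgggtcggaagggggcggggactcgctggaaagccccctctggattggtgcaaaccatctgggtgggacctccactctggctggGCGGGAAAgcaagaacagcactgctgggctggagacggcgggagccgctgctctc
MCM6 held 4 overlapping matches in 2 places, and the other 3 windows held 1 each. The word CCAAT, the core of the NF-Y binding site, was in 22 of the 31 windows, or 71.0%, against 35.7% of all promoters. It was not particular to the S phase genes. In a list of 54 G2/M genes 68.9% of the windows held it, and in a list of 58 other replication genes 52.1%. CCAAT is in capitals, on either strand, in the windows of RRM2, a subunit of ribonucleotide reductase, and BRIP1, a helicase that works with BRCA1. Neither window held an E2F-type word, and each held 3 CCAAT words.
RRM2 promoter, chr2:10122489-10122788 on the plus strand: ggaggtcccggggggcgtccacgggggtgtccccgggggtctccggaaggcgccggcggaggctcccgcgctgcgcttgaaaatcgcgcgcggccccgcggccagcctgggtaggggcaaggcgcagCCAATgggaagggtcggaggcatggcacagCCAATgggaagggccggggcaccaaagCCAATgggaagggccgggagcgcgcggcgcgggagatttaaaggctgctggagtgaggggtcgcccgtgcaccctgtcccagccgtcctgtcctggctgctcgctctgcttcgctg
BRIP1 promoter, chr17:61863479-61863778 on the minus strand: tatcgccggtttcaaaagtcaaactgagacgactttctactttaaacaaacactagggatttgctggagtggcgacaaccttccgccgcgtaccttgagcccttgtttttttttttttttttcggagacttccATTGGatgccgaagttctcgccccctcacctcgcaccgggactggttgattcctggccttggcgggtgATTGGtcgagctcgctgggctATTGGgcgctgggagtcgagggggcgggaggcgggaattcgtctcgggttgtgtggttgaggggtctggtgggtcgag
The word TTTGAA, found in the CHR element of many mitotic promoters, was in 6.45% of the windows of the S phase genes. In the list of 54 G2/M genes 68.9% of the windows held TTTGAA as well, against 15.4% of all promoters. A match to a word is a description of the sequence and not evidence of binding.

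The libraries kept 3006 cells at 6 h of inhibitor, 1927 at 72 h of inhibitor, 3537 in recovery, 2920 at 72 h untreated and 3705 at 0 h untreated. Their totals ran between 85376888 and 114350566 UMIs (unique molecular identifiers, each standing for 1 captured RNA molecule). Median UMIs per cell were highest at 72 h of inhibitor, at 41573, against 29232 at 72 h untreated. The median share of mitochondrial UMIs was 3.31% at 72 h of inhibitor and 2.55% in recovery, against 6.17% at 72 h untreated. What part depth and mitochondrial share have in the differences described here was not tested. The 7 epithelial markers summed to between 5889 and 11280 CPM and the 6 basal epithelial markers to between 1986 and 5945. The 6 immune markers reached at most 7.31 CPM, the 3 endothelial markers 3.78 and the 5 mesenchymal markers 9.07, with COL1A2, COL3A1 and MS4A1 at 0 in every library. The hormone receptor genes ESR1, PGR and ERBB2 together made up 14.8 to 30.1 CPM. Any pair of libraries shared between 0 and 7 cell barcodes.

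Summed over cells and scaled to CPM, the 38 genes made up 2860 CPM at 6 h of inhibitor, 1200 at 72 h of inhibitor, 1526 in recovery, 2044 at 72 h untreated and 3097 at 0 h untreated. The module was thus at its highest at 0 h and close to that at 6 h, lower in untreated cells after 72 h of culture, and lowest after 72 h of inhibitor. The highest value was in the 0 h untreated library for 26 genes, at 6 h of inhibitor for 9 and in recovery for 3. The lowest was at 72 h of inhibitor for 25 genes, in recovery for 12 and at 72 h untreated for SLBP. Each library sum counts molecules, so fewer cells in S phase and less of each RNA per cell cannot be told apart in it.

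**Figure D1:**
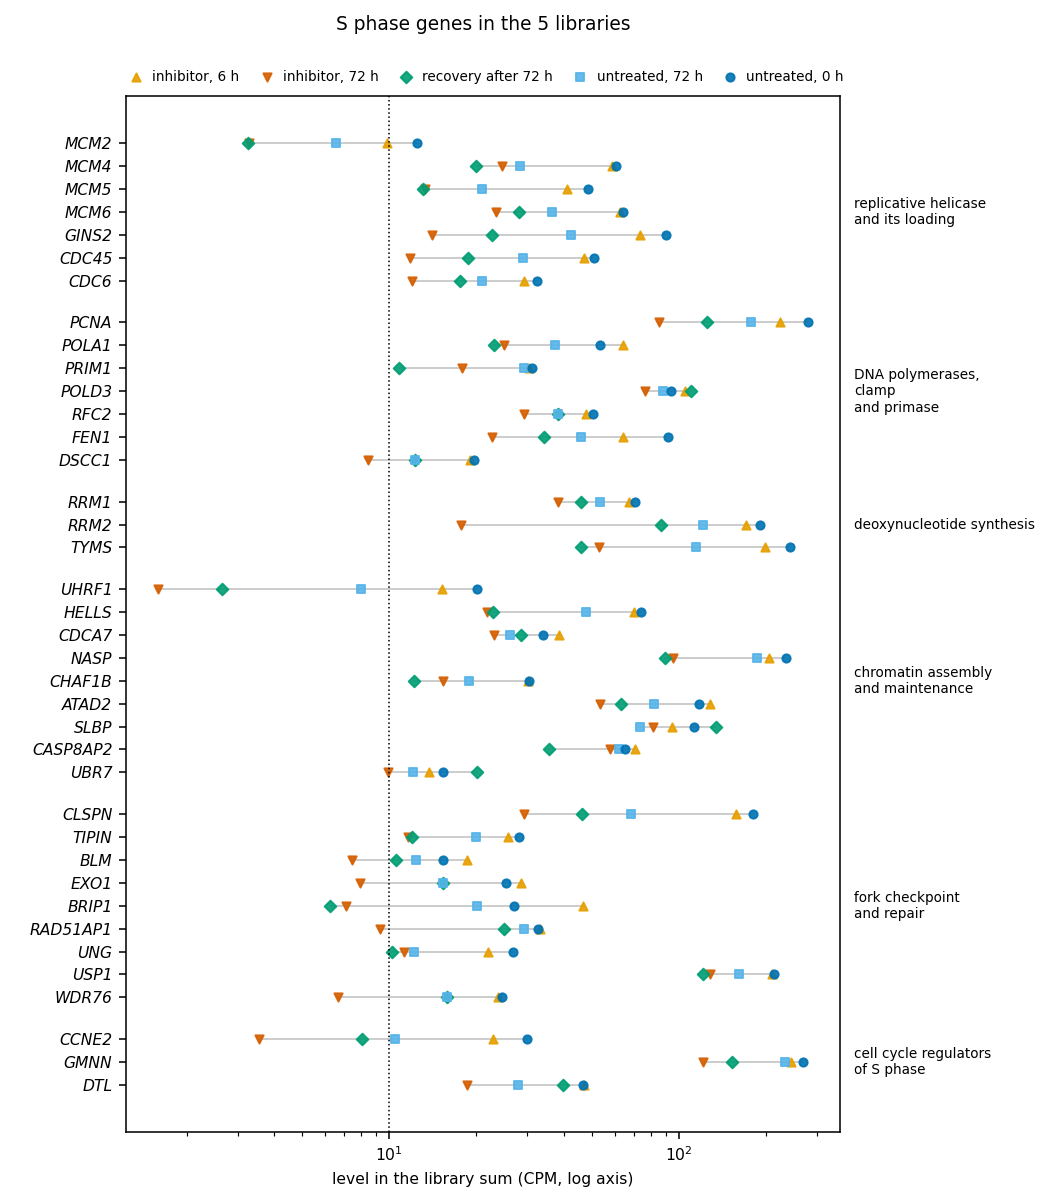
Level of each S phase gene in the 5 libraries, in CPM on a log axis, with genes grouped by role and 1 point per library joined by a grey line. The dotted line marks 10 CPM. The 72 h inhibitor points lie furthest left for 25 of the 38 genes.

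The main comparison was between cells after 72 h of inhibitor and cells left untreated for the same time. A gene entered it at 10 CPM or more in either library, and a ratio beyond 1.5-fold was counted. Of the 38 genes 36 reached the minimum, and 24 of them were more than 1.5-fold lower and 0 more than 1.5-fold higher after the inhibitor. Over all 9346 genes that reached the minimum, 20% were lower and 7.38% higher by that much. The median log2 ratio was -0.73 for the S phase genes and -0.14 for all genes. Under median-of-ratios or trimmed-mean-of-M-values scaling, which shifts all genes alike, the median of the S phase genes was -0.59. In cells thinned to 5000 UMIs it was -0.63. Past 2-fold, 12 of the S phase genes were lower, against 7.35% of all genes. UHRF1 and MCM2 lay under the minimum in both libraries. MCM5, MCM6, POLA1, ATAD2 and DTL, 5 of the 24, sat close to the 1.5-fold line, and their intervals reach across it. Intervals below are exact 95% intervals that cover counting error only. They do not cover the spread between cultures.

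Among the 7 genes of the replicative helicase and its loading, 6 reached the minimum and 5 were past 1.5-fold lower, with a median log2 ratio of -0.73. GINS2 (ENSG00000131153, GRCh38 chromosome 16, 85676198 to 85690073, minus strand) stood at 73.5 CPM at 6 h of inhibitor, 14.1 at 72 h of inhibitor, 22.6 in recovery, 42.3 at 72 h untreated and 90.4 at 0 h untreated. It was highest at 0 h and lowest at 72 h of inhibitor, 3.0-fold lower (2.81 to 3.20) than at 72 h untreated. CDC45, which joins GINS and MCM in the moving helicase, was 2.46-fold lower (2.29 to 2.65), at 11.8 CPM after the inhibitor and 29 CPM without it. MCM4 differed least, with 58.9 CPM at 6 h of inhibitor, 24.6 at 72 h of inhibitor, 20 in recovery, 28.2 at 72 h untreated and 60.6 at 0 h untreated. Its 3 later libraries lay close together and well under the 2 early ones. The helicase subunits MCM5 and MCM6 were each 1.57-fold lower after 72 h of inhibitor, and CDC6, the loader, was 1.75-fold lower. MCM2 stood at 3.29 CPM after the inhibitor and 6.56 CPM in untreated cells of that time, both under the minimum.

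Of the 7 genes for polymerases, clamp and primase, 4 were past 1.5-fold lower, with a median log2 ratio of -0.59. PCNA (ENSG00000132646, chromosome 20, 5114953 to 5126626, minus strand) had 224 CPM at 6 h of inhibitor, 85.5 at 72 h of inhibitor, 125 in recovery, 178 at 72 h untreated and 278 at 0 h untreated. It was 2.08-fold lower (2.03 to 2.14) after 72 h of inhibitor than without it. FEN1, the nuclease that trims Okazaki fragments, was 2.03-fold lower (1.93 to 2.15), and PRIM1, the catalytic subunit of primase, 1.65-fold lower (1.55 to 1.76). POLD3, a subunit of polymerase delta, differed least. It had 105 CPM at 6 h of inhibitor, 76.6 at 72 h of inhibitor, 110 in recovery, 88.4 at 72 h untreated and 93.6 at 0 h untreated, a spread of 1.43-fold over the 5 libraries. RFC2, a subunit of the clamp loader, and DSCC1, of an alternative clamp loader, were within 1.5-fold, at log2 ratios of -0.39 and -0.55. FEN1, PRIM1, POLD3, HELLS and CHAF1B each overlap another gene on their own strand in GENCODE 29. How shared reads were divided between those genes is not given in the sources used here.

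The 3 genes of deoxynucleotide synthesis were 1.39-fold to 6.81-fold lower. RRM2 (ENSG00000171848, chromosome 2, 10120698 to 10131419, plus strand) had the lowest ratio of the 38 at 72 h of inhibitor over 72 h untreated. It stood at 171 CPM at 6 h of inhibitor, 17.7 at 72 h of inhibitor, 86.5 in recovery, 121 at 72 h untreated and 190 at 0 h untreated. The 72 h inhibitor library was far below the other 4, which lay between 86.5 and 190 CPM. RRM1, the partner subunit of the same enzyme, spread far less, with 67.5 CPM at 6 h of inhibitor, 38.4 at 72 h of inhibitor, 45.8 in recovery, 53.4 at 72 h untreated and 70.4 at 0 h untreated. TYMS, thymidylate synthase, had 199 CPM at 6 h of inhibitor, 53.2 at 72 h of inhibitor, 46 in recovery, 115 at 72 h untreated and 241 at 0 h untreated. Unlike RRM2, it was as low in recovery as after the inhibitor.

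Chromatin assembly and maintenance held 9 genes, of which 8 reached the minimum and 3 were past 1.5-fold lower. The median log2 ratio was -0.29. HELLS, a chromatin remodeller tied to DNA methylation, had 70.0 CPM at 6 h of inhibitor, 21.7 at 72 h of inhibitor, 22.9 in recovery, 48.0 at 72 h untreated and 73.8 at 0 h untreated. NASP, a histone H3 and H4 chaperone, had 204 CPM at 6 h of inhibitor, 95.6 at 72 h of inhibitor, 89.8 in recovery, 186 at 72 h untreated and 234 at 0 h untreated. Both were about as low in recovery as after the inhibitor. ATAD2, a bromodomain ATPase, was 1.53-fold lower (1.47 to 1.59) after 72 h of inhibitor than without it. UHRF1 (chromosome 19, 4903080 to 4962154, plus strand), whose promoter is shown above, had 15.2 CPM at 6 h of inhibitor, 1.60 at 72 h of inhibitor, 2.66 in recovery, 7.97 at 72 h untreated and 20.1 at 0 h untreated. Its 12.5-fold spread between the highest and the lowest library was the widest of the 38.

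The other chromatin genes stood apart from that pattern. CASP8AP2, which is needed for making histone mRNA, had 70.5 CPM at 6 h of inhibitor, 58.0 at 72 h of inhibitor, 35.5 in recovery, 61.9 at 72 h untreated and 65.4 at 0 h untreated. SLBP, which binds the stem-loop of histone mRNAs, was the 1 gene above a ratio of 1 at 72 h of inhibitor. It had 94.7 CPM at 6 h of inhibitor, 81.7 at 72 h of inhibitor, 134 in recovery, 73.5 at 72 h untreated and 113 at 0 h untreated, and its log2 ratio at 72 h was 0.15, though it was lower than at 0 h. With other scalings CASP8AP2 and UNG also came out above a ratio of 1. CDCA7, a cofactor of HELLS, and CHAF1B, a subunit of chromatin assembly factor CAF-1, had log2 ratios of -0.18 and -0.30.

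Fork checkpoint and repair genes were lower more widely, with 7 of 9 past 1.5-fold and a median log2 ratio of -0.94. RAD51AP1, which takes part in homologous recombination, had 33.1 CPM at 6 h of inhibitor, 9.30 at 72 h of inhibitor, 25 in recovery, 29.1 at 72 h untreated and 32.6 at 0 h untreated. As with RRM2, the 72 h inhibitor library lay far below the other 4. CLSPN was 2.33-fold lower (2.23 to 2.44), WDR76 2.37-fold (2.15 to 2.61), EXO1, an exonuclease of mismatch repair, 1.92-fold (1.75 to 2.10), TIPIN, a fork protection factor, 1.71-fold (1.58 to 1.85) and BLM, the Bloom helicase, 1.67-fold (1.51 to 1.84). BRIP1 (chromosome 17, 61681266 to 61863521, minus strand) had 46.8 CPM at 6 h of inhibitor, 7.12 at 72 h of inhibitor, 6.25 in recovery, 20.1 at 72 h untreated and 26.9 at 0 h untreated. It was high at 6 h and low in both libraries that followed 72 h of inhibitor.

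USP1, which removes ubiquitin from PCNA and FANCD2, and UNG, a uracil glycosylase, differed little at 72 h. USP1 had 210 CPM at 6 h of inhibitor, 128 at 72 h of inhibitor, 121 in recovery, 161 at 72 h untreated and 213 at 0 h untreated. UNG had 22.0 CPM at 6 h of inhibitor, 11.3 at 72 h of inhibitor, 10.2 in recovery, 12.2 at 72 h untreated and 26.7 at 0 h untreated. For UNG the 3 later libraries were alike and the 2 early ones higher.

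The 3 cell cycle regulators were all past 1.5-fold lower. CCNE2, cyclin E2, which drives entry into S phase, had 22.8 CPM at 6 h of inhibitor, 3.56 at 72 h of inhibitor, 8.04 in recovery, 10.5 at 72 h untreated and 29.9 at 0 h untreated. GMNN, geminin, the inhibitor of origin relicensing, had 244 CPM at 6 h of inhibitor, 121 at 72 h of inhibitor, 153 in recovery, 232 at 72 h untreated and 268 at 0 h untreated. DTL, the substrate receptor that targets proteins bound to PCNA for destruction, had 46.9 CPM at 6 h of inhibitor, 18.5 at 72 h of inhibitor, 39.8 in recovery, 27.8 at 72 h untreated and 46.8 at 0 h untreated. CCNE2 and GMNN were highest at 0 h, while DTL was as high at 6 h of inhibitor as at 0 h and nearly as high in recovery.

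A further 3 lists were set beside the 38 genes for this comparison, each with the same minimum. Of 58 other replication genes, 53 reached it, 21 were past 1.5-fold lower and 0 higher, with a median log2 ratio of -0.40. Among the largest ratios were those of GINS4, at 5.74 CPM after the inhibitor and 17.1 CPM without it, and TK1, thymidine kinase, at 31.3 CPM after the inhibitor and 80.4 CPM without it. Of 34 regulators of the G1/S step, 29 reached it, with 12 lower, 2 higher and a median of -0.48. Its largest ratios were in the kinase inhibitor genes CDKN2C (3.40 CPM after the inhibitor, 13.9 CPM without) and CDKN1A (5.31 and 12.7 CPM), and in MYBL2, a transcription factor of dividing cells (33.6 and 77.5 CPM). The 2 higher ones were CDKN1C, another kinase inhibitor gene (21.4 and 13.4 CPM), and MYC (161 and 85.8 CPM). Of the 54 G2/M genes 42 were lower and 0 higher, with a median of -0.95, led by TUBB4B, a tubulin, at 112 CPM after the inhibitor and 362 CPM without it. GTSE1 (19.4 and 62.0 CPM) and CENPE, a kinetochore motor (22.6 and 70.3 CPM), followed. Mitotic as well as replication genes were thus lower at 72 h of inhibitor.

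The ratios of S phase genes with and without an E2F-type word in the promoter overlapped widely. The 15 with an E2F-type word had a median log2 ratio of -0.94 after 72 h of inhibitor against 72 h untreated, with a range of -2.31 to -0.09. The 16 with none had a median of -0.76, with a range of -2.77 to 0.15. These medians take in all matched genes, with or without the minimum.

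Untreated cells themselves changed over the 72 h. In the 72 h untreated library all 38 genes were lower than at 0 h, 22 of them past 1.5-fold, with a median log2 ratio of -0.63. Of all 9303 genes measured, 6.20% were lower and 15.9% higher by that much, and their median was 0.10. The 7 helicase genes were each past 1.5-fold lower, between -1.22 and -0.62 on the log2 scale. The intervals of CDC6, DSCC1, HELLS, SLBP and WDR76, 5 of the 22, reach across 1.5-fold. CCNE2 was 2.86-fold lower (2.67 to 3.08), CLSPN 2.64-fold (2.56 to 2.71) and UHRF1 2.52-fold (2.32 to 2.74). PRIM1, POLD3 and CASP8AP2 each stood at -0.08. The G2/M genes stayed near their 0 h level, with a median of 0.05, 0 of 54 past 1.5-fold lower and 4 past it higher. The choice of untreated library therefore sets the size of the 72 h difference. Against the 0 h library 34 genes were past 1.5-fold lower after 72 h of inhibitor, with a median of -1.32, against 22.0% of all 9207 genes.

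After 6 h of inhibitor the module was nearly where it stood at 0 h. All 38 genes reached the minimum, 0 were more than 1.5-fold lower and BRIP1 was more than 1.5-fold higher, against 0.882% and 11.0% of all 9075 genes. The median log2 ratio was -0.07 for the S phase genes and 0.10 for all genes. With median-of-ratios scaling 1 gene was past 1.5-fold lower and 1 higher, against 1.61% and 7.49% of all genes. Trimmed-mean-of-M-values scaling gave the same counts, against 1.43% and 7.76%. FEN1 stood lowest, at 64.3 CPM at 6 h of inhibitor and 91.5 CPM at 0 h, 1.42-fold lower (1.38 to 1.47). CCNE2 and UHRF1 were each 1.32-fold lower, and PCNA was 1.24-fold lower. BRIP1 was 1.74-fold higher (1.66 to 1.82), at 46.8 CPM at 6 h and 26.9 CPM at 0 h. No untreated library was taken at 6 h, so time in culture and the inhibitor cannot be told apart in this comparison. Against the 72 h untreated library 17 genes were past 1.5-fold higher at 6 h, against 8.56% of all 9453 genes.

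Among the 38 genes, longer ones tended to have higher ratios at 6 h over 0 h. Among the 10 genes of longest genomic span, from 49.8 to 303 kb, 6 were higher at 6 h, with a median log2 ratio of 0.064. The other 28, of 4.61 to 47.2 kb, included 4 that were higher, with a median of -0.119. The genes counted as higher take in DTL, at a log2 ratio of 0.00, and RAD51AP1, at 0.02, whose intervals reach across equality. Across the 38 genes Spearman's rho between span and log2 ratio was 0.52, a description over genes that share both libraries. The same relation over all genes was not computed, so it is not given as particular to the S phase genes. POLA1, the catalytic subunit of polymerase alpha and the longest at 303 kb, was 1.20-fold higher (1.16 to 1.24), and BLM, at 98.8 kb, 1.21-fold higher (1.13 to 1.29). FEN1, the shortest, was the lowest. HELLS, at 112 kb, and UHRF1, at 59.1 kb, went against this order, at log2 ratios of -0.08 and -0.40.

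**Figure D2:**
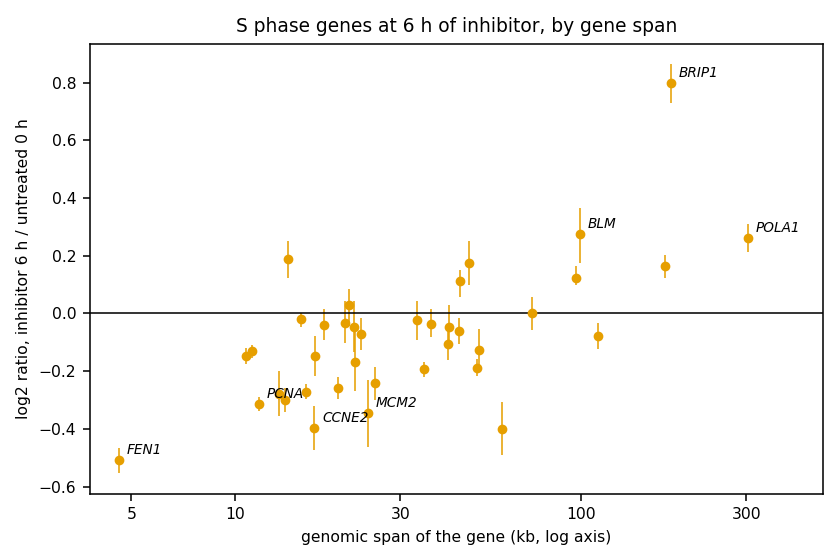
Log2 ratio of each S phase gene at 6 h of inhibitor over 0 h untreated, against the genomic span of the gene in kb on a log axis, with exact 95% intervals of counting error as bars. BRIP1, at 182 kb, stands highest at 0.80, and FEN1, at 4.61 kb, lowest at -0.51.

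Between 6 h and 72 h of inhibitor the whole module was lower at the later time. Of 37 genes that reached the minimum 33 were past 1.5-fold lower at 72 h and 0 higher, against 25.2% and 12.1% of all 9359 genes. The median log2 ratio was -1.31, and -0.18 for all genes. RRM2 was 9.66-fold lower (9.17 to 10.2), UHRF1 9.50-fold (7.98 to 11.4) and BRIP1 6.58-fold (6.04 to 7.16). POLD3, SLBP, CASP8AP2 and UBR7 were the 4 within 1.5-fold. The 72 h untreated library was lower than the 0 h one as well, so this difference holds both time and the inhibitor.

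Recovery cells were set against the 72 h inhibitor library first. Recovery came after the 72 h of inhibitor, so further time in culture and recovery itself cannot be told apart in this comparison. Of 34 genes that reached the minimum, 11 were more than 1.5-fold higher in recovery and 2 more than 1.5-fold lower, against 14.2% and 14.3% of all 8943 genes. The median log2 ratio was 0.36, and -0.01 for all genes. RRM2 was 4.88-fold higher (4.62 to 5.16), RAD51AP1 2.69-fold (2.49 to 2.92), WDR76 2.36-fold (2.14 to 2.60), DTL 2.15-fold (2.03 to 2.28) and UBR7, a ubiquitin ligase for histone H2B, 2.04-fold (1.88 to 2.21). PRIM1 and CASP8AP2 were lower in recovery, by 1.65-fold (1.52 to 1.78) and 1.63-fold (1.56 to 1.71). The G2/M genes stood further up than the S phase genes, with 43 of 54 past 1.5-fold higher, 0 lower and a median of 1.16.

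The recovery library was then set against the 72 h untreated one. No untreated library was taken after a matching recovery time, so time in culture and treatment cannot be told apart here either. Of 36 genes 13 were past 1.5-fold lower and 2 higher, against 24.9% and 11.7% of all 9405 genes, with a median log2 ratio of -0.42 and of -0.17 for all genes. MCM5, CDC45, CHAF1B and GMNN, 4 of the 13, had intervals that reach across 1.5-fold. Under median-of-ratios scaling 7 were lower and 3 higher, against 17.7% of all genes in each direction, and the median of the S phase genes was -0.25. Under trimmed-mean-of-M-values scaling the counts were again 7 and 3, against 17.9% and 17.5% of all genes, with a median of -0.26. The share of S phase genes that were lower under these scalings was thus near that of all genes. The 2 that were higher without rescaling were SLBP, 1.82-fold (1.77 to 1.87), and UBR7, 1.67-fold (1.55 to 1.8), at 20.1 CPM in recovery and 12.1 CPM at 72 h untreated. UBR7 stood at 13.7 CPM at 6 h of inhibitor, 9.90 at 72 h of inhibitor and 15.4 at 0 h untreated. The G2/M genes had a median of 0.08 in the same comparison, with 6 lower and 12 higher.

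The 72 h inhibitor and recovery libraries were each set against the same 72 h untreated library, so the ratios of the 2 comparisons share it and are given side by side. That library matches the 72 h inhibitor cells in time, but not the recovery cells. UHRF1, which lay under the minimum of 10 CPM in each of these libraries, had a log2 ratio of -2.31 at 72 h of inhibitor and -1.58 in recovery. GINS2 stood at -1.58 and -0.91, and HELLS at -1.15 and -1.07. BRIP1, at -1.50 and -1.68, was low in both. RAD51AP1 stood at -1.65 after the inhibitor and -0.22 in recovery, CCNE2 at -1.55 and -0.38, and PCNA at -1.06 and -0.51. CASP8AP2, at -0.09 after the inhibitor and -0.80 in recovery, was lower in recovery. PRIM1 was 1.65-fold lower after the inhibitor and 2.71-fold lower (2.53 to 2.91) in recovery. RRM2 was 6.81-fold lower after the inhibitor and 1.40-fold lower (1.36 to 1.44) in recovery. EXO1, WDR76, RFC2 and DSCC1 each had a log2 ratio of 0.00 in recovery, where RFC2 stood at 38.3 CPM, against 38.3 CPM at 72 h untreated.

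**Figure D3:**
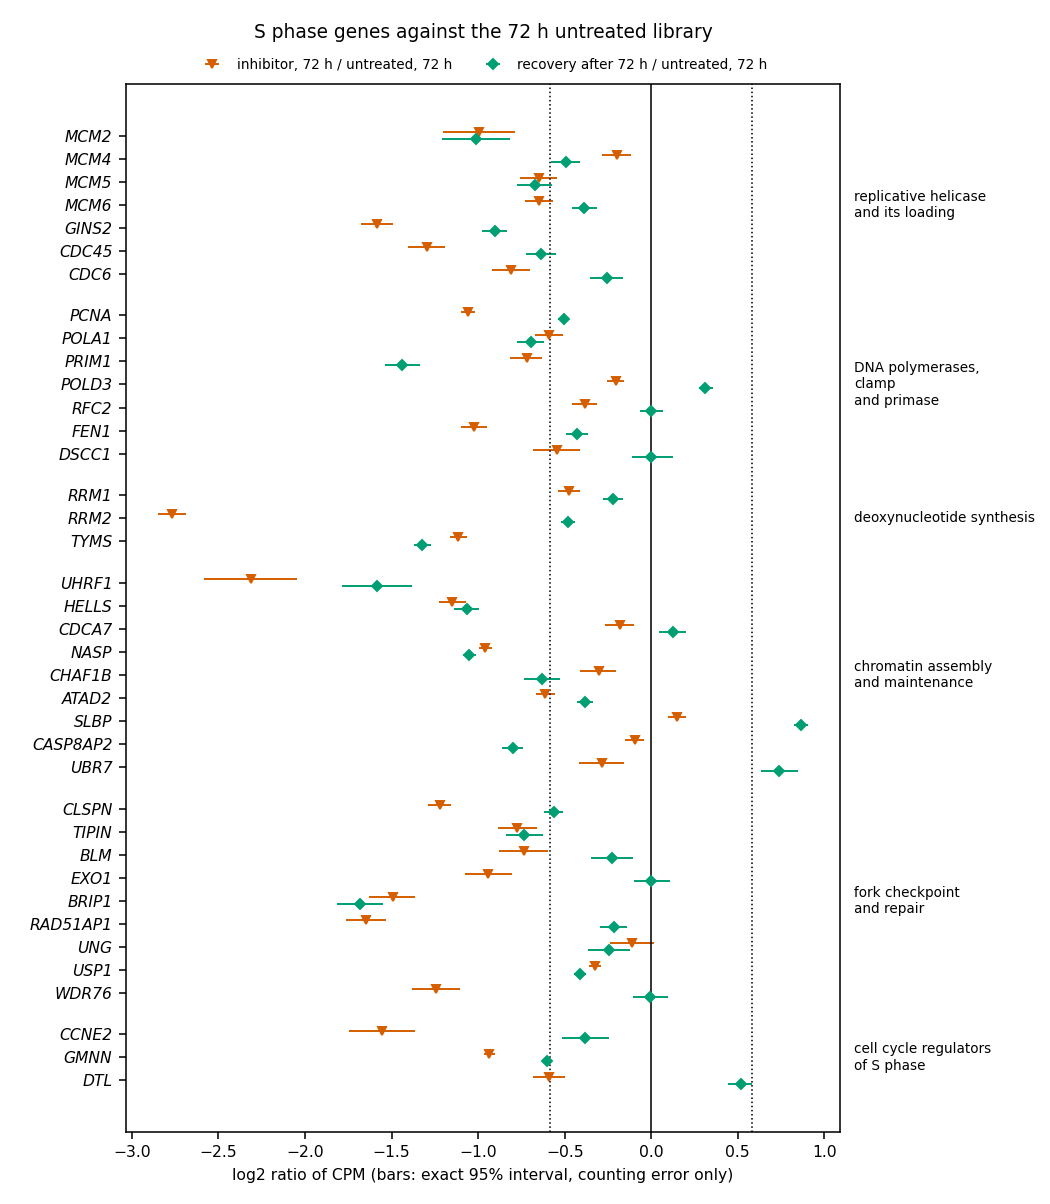
Log2 ratio of each S phase gene over the 72 h untreated library, at 72 h of inhibitor (orange triangles) and in recovery (green diamonds), with exact 95% intervals of counting error. Solid and dotted lines mark equality and 1.5-fold. RRM2 lies at -2.77 after the inhibitor and -0.48 in recovery, while TYMS lies at -1.11 and -1.32.

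To see how the module was spread over cells, kept cells with 5000 UMIs or more were each thinned at random to 5000, and the UMIs of the 38 genes were summed per cell. This left out 10 cells at 6 h of inhibitor, 59 at 72 h of inhibitor, 75 in recovery, 35 at 72 h untreated and 5 at 0 h untreated. The mean sum per cell was 14.1 UMIs at 6 h of inhibitor, 5.86 at 72 h of inhibitor, 7.56 in recovery, 9.84 at 72 h untreated and 15.2 at 0 h untreated. Before thinning, the mean was 102 UMIs per cell at 6 h of inhibitor, 53.2 at 72 h of inhibitor, 44.1 in recovery, 65.7 at 72 h untreated and 95.6 at 0 h untreated. The order of the 72 h inhibitor and recovery libraries thus turns with depth per cell, which was 41573 against 26540 UMIs. The order of the 6 h inhibitor and 0 h untreated libraries turns as well, at 33712 against 28980 UMIs.

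The cells at the upper end were nearly gone after 72 h of inhibitor and in recovery. A sum above 21 UMIs, which is the 75th percentile at 0 h untreated, was found in 17.8% of cells at 6 h of inhibitor (16.4 to 19.2, exact binomial 95% interval), 0.375% at 72 h of inhibitor (0.151 to 0.771), 0.404% in recovery (0.221 to 0.678), 3.74% at 72 h untreated (3.08 to 4.50) and 22.0% at 0 h untreated (20.7 to 23.4). That is 7 of 1868 cells at 72 h of inhibitor and 14 of 3462 in recovery, against 108 of 2885 at 72 h untreated. The sum is a range and not a cell type, and 16% of cells at 6 h and 17.6% at 0 h lay within 2 UMIs of that value. Whole distributions moved as well as their tails. The median was 13 UMIs at 6 h of inhibitor, 5 at 72 h of inhibitor, 7 in recovery, 8 at 72 h untreated and 14 at 0 h untreated.

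**Figure D4:**
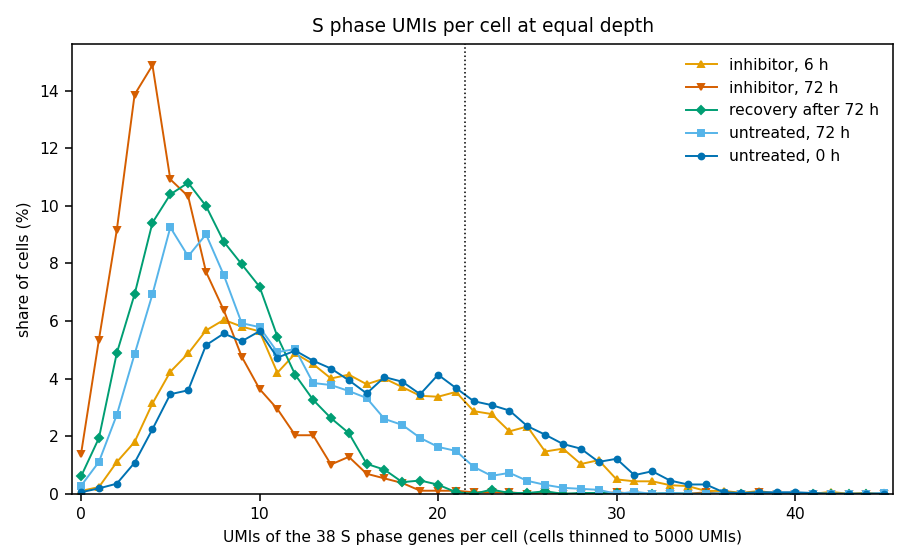
Share of cells (percent) at each summed count of the 38 S phase genes, in cells thinned to 5000 UMIs, 1 line per library. The dotted line marks the 75th percentile at 0 h untreated, above which lie 17.8% of cells at 6 h of inhibitor, 0.375% at 72 h of inhibitor, 0.404% in recovery, 3.74% at 72 h untreated and 22.0% at 0 h untreated.

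The genes were not spread independently over cells. The variance of the sum over its mean was 3.88 at 6 h of inhibitor, 2.60 at 72 h of inhibitor, 2.13 in recovery, 3.27 at 72 h untreated and 3.68 at 0 h untreated. The variances of the single genes, added up, came to between 1.11 and 1.22 times the mean in the 5 libraries, so part of the spread of the sum was shared between genes in each library, the least in recovery. Ranking each library's own cells by the sum of the other 37 genes, a split added after seeing the data, put nearly all genes higher in the 25% of cells with the highest sums than in the 25% with the lowest. That held for 38 of 38 genes at 6 h of inhibitor, 37 at 72 h of inhibitor and 38 in recovery, as well as for 38 in each untreated library, with UBR7 at 72 h of inhibitor as the exception. The interval lay wholly above equality for 35 genes at 72 h of inhibitor and 33 in recovery, against 38 in each other library. The 72 h inhibitor and recovery libraries also had the lowest mean sums per thinned cell, 5.86 and 7.56 UMIs. What part this has in the lower counts was not tested. The share over all genes was not computed for this split, so it is not given as particular to the S phase genes. EXO1 had the widest contrast at 72 h untreated, 16.8-fold (7.87 to 42.6), and at 72 h of inhibitor, 24.7-fold (7.96 to 124). CLSPN, CDC45 and DTL also had wide contrasts at 72 h of inhibitor, of 11.3-fold (7.26 to 18.3), 12.9-fold (6.17 to 31.0) and 8.55-fold (5.06 to 15.3). TIPIN, NASP and SLBP had smaller contrasts there, of 1.13-fold (0.615 to 2.06), 1.62-fold (1.36 to 1.93) and 1.35-fold (1.12 to 1.63).

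Single genes were also counted at equal depth. RRM2 gave a UMI in 7.17% of cells at 72 h of inhibitor and 31.9% at 72 h untreated, and CLSPN in 11.9% and 23.5%. GMNN was found in 41.0% of cells at 72 h of inhibitor and 63.5% at 72 h untreated. Each library is 1 cell line, so no cell type that lacks these genes was present to give a background from free RNA.

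The G2/M genes gave a second axis. Above 34 G2/M UMIs, the 75th percentile at 0 h, lay 24.9% of cells at 6 h of inhibitor, 11.8% at 72 h of inhibitor, 34.3% in recovery, 26.1% at 72 h untreated and 24.6% at 0 h untreated. In recovery the upper end was thus well filled for the G2/M genes and almost empty for the S phase genes. Cells high in neither sum made up 59.4% at 6 h of inhibitor, 88.0% at 72 h of inhibitor, 65.5% in recovery, 70.9% at 72 h untreated and 56.8% at 0 h untreated. Across cells the correlation of the 2 sums, given as a description of cells that share a library and a depth, was -0.06 at 6 h of inhibitor, 0.29 at 72 h of inhibitor, 0.21 in recovery, 0.13 at 72 h untreated and -0.04 at 0 h untreated.

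Some S phase genes were higher in cells with many G2/M UMIs. Cells high in the G2/M sum alone were compared with cells high in neither, leaving each gene out of the S phase sum it was judged by. More than 1.5-fold higher on the G2/M side were 4 genes at 6 h of inhibitor, 10 at 72 h of inhibitor, 4 in recovery, 5 at 72 h untreated and 4 at 0 h untreated. More than 1.5-fold lower there were 16 genes at 6 h of inhibitor, 3 at 72 h of inhibitor, 5 in recovery, 10 at 72 h untreated and 13 at 0 h untreated. These counts are not set against all genes, and their differences between libraries were not tested. Among the 10 higher genes at 72 h of inhibitor, the counting intervals of MCM2, CDC6 and BLM reach across equality. The interval of TIPIN, among the 3 lower genes there, does so too. TYMS, RRM2 and RAD51AP1 were past 1.5-fold higher in each library. RRM2 was 1.95-fold higher at 6 h of inhibitor, 6.33-fold (4.55 to 8.80) at 72 h of inhibitor, 2.98-fold (2.67 to 3.32) in recovery, 2.35-fold (2.11 to 2.61) at 72 h untreated and 2.24-fold at 0 h untreated. After 72 h of inhibitor its mean was 0.324 UMIs per cell on that side and 0.0512 in cells high in neither sum. MCM6 lay on the other side throughout, with ratios of 0.228 at 6 h of inhibitor, 0.370 at 72 h of inhibitor, 0.534 in recovery, 0.243 at 72 h untreated and 0.324 at 0 h untreated.

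**Figure D5:**
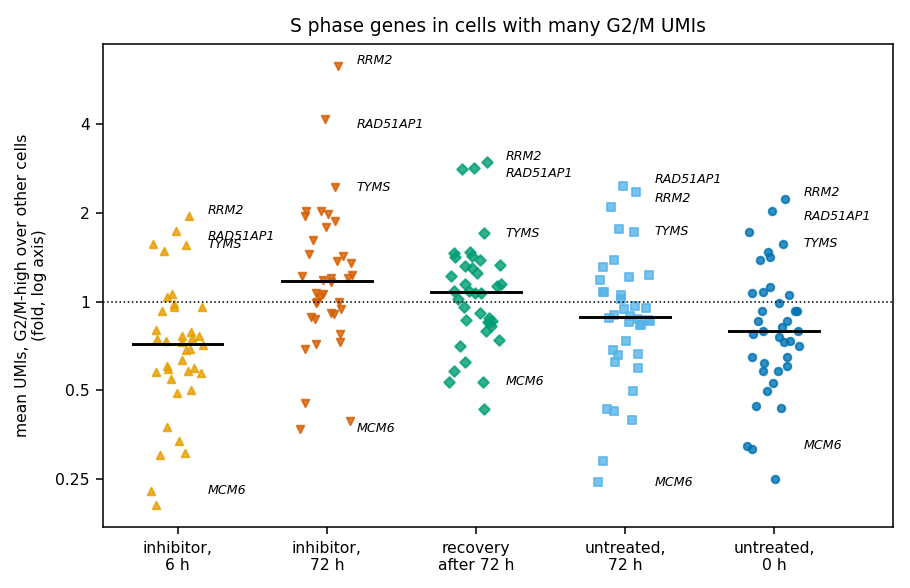
Mean UMIs of each S phase gene in thinned cells high in the G2/M sum alone over cells high in neither sum, as a fold on a log axis, 1 point per gene and library, with the median as a black bar. RRM2, RAD51AP1, TYMS and MCM6 are named. The median is 0.720 at 6 h of inhibitor, 1.17 at 72 h of inhibitor, 1.08 in recovery, 0.887 at 72 h untreated and 0.792 at 0 h untreated.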

How the data were processed

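RNA of single MDA-MB-468 cells was measured in 5 libraries, 1 per group. The authors deposited UMI counts, as whole numbers for each barcode and gene. Cell Ranger 7.1.0 and GRCh38 were used, per the submitters' processing notes. Which annotation release was taken and how intronic reads were handled is not stated in the sources used here. GENCODE 29 gave the positions of genes.

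Barcodes with at least 1000 genes and at most 20% mitochondrial UMIs were kept, with no removal of doublets and no clustering. Their counts were added up in each library and divided by the library total to give CPM. Exact 95% intervals of ratios (Clopper-Pearson, given both counts' sum) and binomial intervals cover counting error only. With 1 library per group there is no test. The 38 genes and the other lists were chosen with earlier results of these data known. Within each role, values in all libraries are printed for the genes with the largest and smallest ratio at 72 h of inhibitor and with the highest mean level, and for genes past 1.5-fold against the general direction. The 3 genes with the largest ratio are named for each other list, except 1 that is not reported here. Further genes were named after their values were seen. The tools were matplotlib 3.10.9, pandas 2.3.3, scipy 1.17.1, numpy 2.4.6 and Python 3.11.15. The steps were checked on simulated data.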

Additional observations from a re-analysis of the deposited data

Results flagged for a closer look

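BRIP1 had ratios in opposite directions in the comparisons at the 2 times of inhibitor. Its log2 ratio was -1.50 at 72 h of inhibitor over 72 h untreated and 0.80 at 6 h of inhibitor over 0 h untreated. The 2 ratios use different untreated libraries. No untreated library was taken at 6 h, so time in culture and the inhibitor cannot be told apart in the 6 h ratio. With 1 library per group, the difference between the times was not tested.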

How the results depend on the processing

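No gene past 1.5-fold changed direction under the alternatives tried. Of 2166 recomputed log2 ratios of the S phase genes, 1465 stayed within the counting interval, 701 fell outside it, and 26 values past 1.5-fold moved by over 1.5 times, each when 0 h untreated replaced 72 h untreated. Scaling by median-of-ratios or trimmed mean of M values moved the median of all genes by 0.14 for 72 h of inhibitor over 72 h untreated, -0.10 and -0.09 for 6 h over 0 h, 0.18 for 72 h over 6 h of inhibitor and 0.17 and 0.16 for recovery over 72 h untreated. With either, and with totals that leave out mitochondrial and ribosomal protein genes, CASP8AP2 and UNG lay above 0 at 72 h of inhibitor.

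Counts of genes past the threshold moved as follows. With a minimum of 50 CPM, the lower genes numbered 7 at 72 h of inhibitor over 72 h untreated, 15 over 6 h of inhibitor, 1 in recovery over 72 h of inhibitor, 4 over 72 h untreated, and 11 at 72 h untreated over 0 h. In the same order 12, 18, 10, 12 and 20 genes reached that minimum, and 20 did at 6 h over 0 h. The higher genes numbered 0 at 6 h over 0 h, 2 in recovery over 72 h of inhibitor and 1 over 72 h untreated. With a 2-fold threshold the lower ones were 12, 0, 5 and 8 for 72 h of inhibitor over untreated, recovery over 72 h of inhibitor, recovery over untreated and untreated over 0 h, and the higher ones 0 at 6 h, 5 in recovery over 72 h of inhibitor and 0 over untreated. Those 4 comparisons measured 36, 34, 36 and 38 genes. Median-of-ratios and trimmed-mean scaling each left 1 gene lower at 6 h and 7 lower in recovery over 72 h untreated. Totals without mitochondrial and ribosomal protein genes left 7 of 34 higher in recovery over 72 h of inhibitor. Against the other untreated library, 17 of 37 were higher at 6 h, and of 38 measured in recovery 30 were lower and 0 higher. Shares over all genes are printed above for only some of these rules, and the other counts are not set against all genes. Fewer genes measured, or a stricter threshold, lowers a count by construction, and the cause of the other shifts was not tested.

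The share of cells above the S phase value moved with where it fell. At the 90th percentile of 0 h it was 6.17% at 6 h of inhibitor, 0.116% in recovery, 0.693% at 72 h untreated and 8.43% at 0 h. With no cell filter, where the 75th percentile fell at 20 UMIs and not 21, it was 20.3%, 5.51% and 25% at 6 h of inhibitor, 72 h untreated and 0 h, and with a second random thinning, also at 20, it was 21.0%, 6.14% and 24.4%. In each of these settings the share was under 1% at 72 h of inhibitor and in recovery. A filter of 20000 or more UMIs with no more than 10% mitochondrial ones was tried after seeing the data and gave 25 lower genes at 72 h of inhibitor.

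No paired analysis was possible because each group has 1 library. Differences between cultures cannot be separated from the treatment, doublets were not removed, and genes near 10 CPM rest on few UMIs per cell.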
